A study of Mus musculus with 8 samples.

Results

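The 39 Hox genes of the mouse lie in 4 clusters, HoxA, HoxB, HoxC and HoxD, and were followed here as positions relative to lamina associated domains (LADs), the stretches of chromosome called as close to the nuclear lamina. Members were all protein-coding genes of the mm9 annotation whose symbol is Hoxa, Hoxb, Hoxc or Hoxd followed by a number: 11 in HoxA, 10 in HoxB, 9 in HoxC and 9 in HoxD, of 22367 protein-coding genes on 21 chromosomes. The 2 annotated Hoxa3 entries were joined. Each cluster was read together with 1 Mb of flanking sequence on each side.

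The data were LaminB1-DamID profiles of 3T3-L1 cells, a mouse fibroblast line that is a model of white adipocyte differentiation. In DamID a bacterial adenine methylase (Dam) is fused to LaminB1, so that GATC sites near the lamina become methylated, while free Dam serves as the control. The 4 conditions were untreated undifferentiated preadipocytes (day 0), adipocytes with a control non-target shRNA (day 9 of induction), adipocytes with Tmem120a shRNA (day 9) and adipocytes with Tmem120a/b shRNA (day 9). The last 2 are the knockdowns. Tmem120a is a nuclear envelope transmembrane protein and Tmem120b is its paralog. All cells were transduced with lentivirus encoding Dam or LaminB1-Dam, adipocytes at a late stage of differentiation, and the preadipocytes received no shRNA. The preadipocyte and adipocyte conditions therefore differ in shRNA as well as in differentiation, and these cannot be told apart.

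Every condition had a single LaminB1-Dam library and a single Dam library. There is therefore no replicate error, and no difference between lists was tested. The lists hold positions without a score, so read depth and the strength of a LAD are unknown. No expression values were analysed here, so neither the cell type markers nor the knockdowns were checked. The lists held 3914 LADs in preadipocytes, 2542 in adipocytes, 5723 in the Tmem120a shRNA cells and 6971 in the Tmem120a/b shRNA cells, over 44.9%, 45.1%, 43.8% and 43.7% of the genome. Of these, 26 LADs reached within 1 Mb of a Hox cluster: 9, 1, 7 and 9. A region in a preadipocyte LAD and not in an adipocyte LAD is called released, and the reverse recruited, following 2 further deposited lists of 2021 and 1808 regions.

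Hox genes encode homeodomain transcription factors that give cells their position along the body axis. Within a cluster all genes are read in the same direction, low-numbered genes act toward the head and high-numbered genes toward the tail and the limb ends, and the order of the genes follows the order of their use. Silent Hox genes are held by Polycomb complexes, active ones by trithorax proteins, and long gene-poor stretches beside HoxA and HoxD carry distant enhancers. Mesenchymal cells, fibroblasts and preadipocytes among them, keep Hox patterns that reflect where in the body they came from.

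The sequences on which the calls rest are those at the borders, because DamID measures the fragments between GATC sites. All 52 borders of the 26 LADs fell on a GATC. The borders of the preadipocyte LADs nearest to HoxD and HoxA are shown from mm9, plus strand, with the GATC at the listed border in capitals:

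HoxD, start of the LAD that holds Evx2 and the first part of Hoxd13 (chr2:74439196-74439235, intergenic): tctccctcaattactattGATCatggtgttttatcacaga
HoxD, end of that LAD (chr2:74507695-74507734, intron of Hoxd13): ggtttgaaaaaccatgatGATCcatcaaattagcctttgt
HoxD, start of the LAD that holds Hoxd1 (chr2:74588594-74588633, exon of the transcript 6720416L17Rik): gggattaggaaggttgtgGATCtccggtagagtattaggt
HoxD, end of that LAD (chr2:74609861-74609900, intergenic): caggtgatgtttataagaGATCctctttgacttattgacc
HoxA, start of the LAD that holds Evx1 (chr6:52255517-52255556, intergenic): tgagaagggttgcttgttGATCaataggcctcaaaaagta
HoxA, end of that LAD (chr6:52312237-52312276, intergenic): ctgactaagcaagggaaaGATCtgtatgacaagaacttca

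Hox genes met LADs rarely. In preadipocytes 2 of 39 Hox genes met a LAD (5.13%), Hoxd1 and Hoxd13, where 26.2% of all protein-coding genes did. In adipocytes, in the Tmem120a shRNA cells and in the Tmem120a/b shRNA cells 0 of 39 did, beside 23.3%, 27.5% and 29.5% of all genes. The 2 Hox genes are the outermost genes of HoxD. Of all genes 4.81% met a LAD in preadipocytes and not in adipocytes, and 1.59% met one in preadipocytes and in none of the 3 adipocyte lists. Hoxd1 and Hoxd13 belonged to both groups, which makes 5.13% of the Hox genes in each.

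Hoxd13, the gene of digits and the genital tubercle, lies at chr2:74506367-74509656. A preadipocyte LAD covered 41.0% of its body, and 0% was covered in the other 3 lists. Its start site was inside the LAD, which ended in its intron at position 74507715. Hoxd1, at the head end of the cluster, lies at chr2:74601037-74603200. A preadipocyte LAD covered 100% of its body, and 0% was covered in the other 3 lists. The calls are small ones: the LAD at Hoxd1 was 21.267 kb long, or 54 DpnI fragments, and the LAD at Hoxd13 was 68.499 kb long, or 144 fragments. With only LADs of at least 30 kb kept, Hoxd13 alone remained, and with at least 100 kb 0 Hox genes met a LAD in preadipocytes.

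The 250 bases before the RefSeq start of Hoxd13 and of Hoxd1 lay wholly in a preadipocyte LAD and wholly outside the LADs of the other 3 lists, and are shown because they are the promoters the preadipocyte calls cover. The sequences are from RefSeq (GRCm38.p6), given on the gene's strand, which is plus for both genes. Each was placed in mm9 by an exact match, at chr2:74506032-74506281 for Hoxd13 and chr2:74600787-74601036 for Hoxd1. The motif searched was GATC, which reads the same on both strands, and neither window holds one, so there are no capitals:

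Hoxd13: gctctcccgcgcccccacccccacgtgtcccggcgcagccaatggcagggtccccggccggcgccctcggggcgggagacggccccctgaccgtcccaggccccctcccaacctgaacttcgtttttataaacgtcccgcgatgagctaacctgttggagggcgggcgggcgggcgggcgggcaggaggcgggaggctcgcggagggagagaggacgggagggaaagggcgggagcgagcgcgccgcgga
Hoxd1: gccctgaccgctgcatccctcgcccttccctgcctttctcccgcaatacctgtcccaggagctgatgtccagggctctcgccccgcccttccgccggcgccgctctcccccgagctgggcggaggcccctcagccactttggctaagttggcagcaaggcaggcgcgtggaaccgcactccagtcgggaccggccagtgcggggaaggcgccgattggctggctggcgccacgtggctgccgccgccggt

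Of 32851 upstream windows of 250 bases in the table, 41.9% hold GATC, as do 13 of the 24 windows of 22 Hox genes that matched. A GATC-free promoter is measured through the fragment around it. The annotated start site of Hoxd13 sits on a DpnI fragment of 1034 bp and that of Hoxd1 on a fragment of 1401 bp. Over the 39 Hox start sites these fragments ran from 74 to 2086 bp, with a median of 899 bp. The clusters as a whole had 2.06 to 2.45 GATC per kb, against 2.51 over mm9, and were richer in G and C (48.9% to 50.01%, against 41.8%) and in CpG (20.9 to 29.8 per kb, against 8.34). Whether this composition had a part in the low number of LAD calls was not tested.

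HoxD lies at chr2:74506367-74603200 with Hoxd13 at its low coordinate. In preadipocytes 15.935 kb of its 96.834 kb, or 16.5%, was in LADs, all of it at the ends and from LADs under 100 kb. Between the LADs lay 80.899 kb that held Hoxd12, Hoxd11, Hoxd10, Hoxd9, Hoxd8, Hoxd4 and Hoxd3 whole. The nearest LAD was 5.271 kb from Hoxd12, 9.734 kb from Hoxd11 and 34.957 kb from Hoxd8, the highest in the cluster, and 2.282 kb from Hoxd3 on the other side. With 10 kb added on each side of every gene, Hoxd12, Hoxd11 and Hoxd3 joined Hoxd13 and Hoxd1, which makes 5 genes in preadipocytes. In the other lists the nearest LAD lay on a single side of the whole cluster. From Hoxd1 to Hoxd13 the distance ran from 271.744 down to 177.074 kb in the Tmem120a shRNA cells, from 171.329 down to 76.659 kb in the Tmem120a/b shRNA cells and from 1382 up to 1476 kb in adipocytes.

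**Figure D1:**
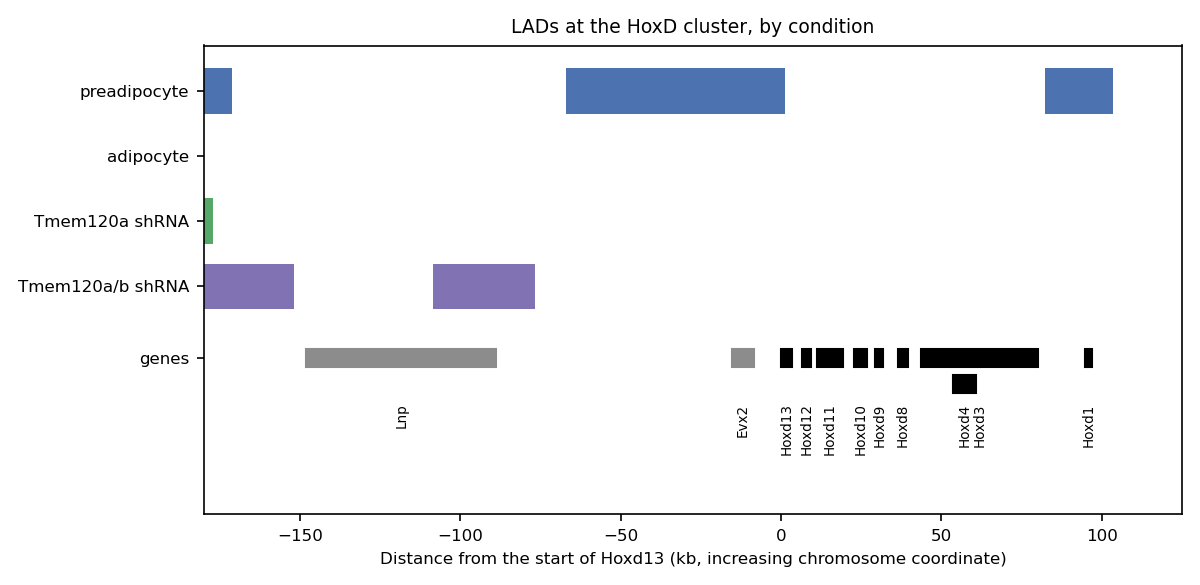
LADs at the HoxD cluster in the 4 lists (coloured bars), against distance from the start of Hoxd13 in kb; black bars are Hox genes (Hoxd4, which lies inside Hoxd3, is drawn lower) and grey bars Evx2 and Lnp, and LADs at the left edge continue beyond it. Preadipocyte LADs cover Evx2, the first part of Hoxd13 and Hoxd1, and no LAD of another list reaches a HoxD gene.

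The HoxD flank beyond Hoxd13 held the most LAD of the 8 flanks in preadipocytes and in both knockdowns. Its share in LADs was 57.0% in preadipocytes, 0% in adipocytes, 44.8% in the Tmem120a shRNA cells and 65.5% in the Tmem120a/b shRNA cells. Adipocytes thus had no LAD there while both knockdowns did. The flank beyond Hoxd1 held 0.668%, 0%, 2.63% and 0%, the preadipocyte value being the end of the LAD at Hoxd1 and the knockdown value a LAD of 26.268 kb at chr2:75329929-75356197.

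Most of the LAD length beyond Hoxd13 was 1 long LAD over the stretch between Atp5g3 and Lnp, which has no protein-coding gene. In preadipocytes it ran over chr2:73856770-74299781, 443.011 kb or 1071 DpnI fragments, and ended 206.586 kb before Hoxd13. The annotation gives only the processed transcripts A630050E04Rik, Gm13667 and 4930441J16Rik there. It was the released region of rank 3 by length among 2021. In the Tmem120a shRNA cells a LAD of 420.129 kb lay at chr2:73909164-74329293, which starts 52.394 kb inside the preadipocyte LAD and ends 29.512 kb beyond it. In the Tmem120a/b shRNA cells a LAD of 514.74 kb lay at chr2:73839724-74354464, which extends 17.046 kb and 54.683 kb beyond the preadipocyte borders and ends 151.903 kb before Hoxd13. The released region was thus covered to 88.2% and 100% in the knockdown lists.

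The other 4 preadipocyte LADs of the HoxD region were also listed as released and were not alike in the knockdown lists. The region of 26.76 kb at chr2:74308514-74335274, next to the long one, was in a LAD over 77.6% of its length in the Tmem120a shRNA cells and 100% in the Tmem120a/b shRNA cells. The region with Evx2 and the first part of Hoxd13, the region with Hoxd1 (chr2:74588614-74609881) and the region of 33.398 kb at the start of Chn1 (chr2:73595872-73629270) were at 0% in both. At HoxD the released regions that overlapped knockdown LADs were those without a protein-coding gene.

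Evx2, an even-skipped homeobox gene that shares the limb enhancers of the Hoxd genes, lies at chr2:74491049-74497918, 8.448 kb from Hoxd13. Preadipocytes had it 100% inside a LAD and the other 3 lists 0%, with its nearest LAD at 1488 kb in adipocytes, 161.756 kb in the Tmem120a shRNA cells and 61.341 kb in the Tmem120a/b shRNA cells. Lnp, which encodes the endoplasmic reticulum protein lunapark, lies at chr2:74358348-74417492. It was at 0% in preadipocytes, adipocytes and the Tmem120a shRNA cells and at 33.4% in the Tmem120a/b shRNA cells, its start site included. That LAD, at chr2:74397756-74429708, was 31.952 kb long and was the LAD nearest to Hoxd13 in this list. Chn1, a GTPase-activating protein of Rac, lies at chr2:73448717-73613403 and had 10.6%, 0%, 16.9% and 43.1% of its body in LADs of preadipocytes, adipocytes, Tmem120a shRNA cells and Tmem120a/b shRNA cells. Its start site was covered in preadipocytes and in no other list, since the knockdown LADs covered other parts of the gene. Atf2, a leucine zipper transcription factor, and Atp5g3, a subunit of ATP synthase, lay whole in the preadipocyte gap of 227.5 kb.

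HoxA lies on chromosome 6 with Hoxa13 at its high coordinate, and no list had a LAD inside it. The nearest LAD to Hoxa13, a gene of the limb ends and the urogenital tract, was at 44.662 kb in preadipocytes, and the median over the 11 genes of the cluster was 92.2 kb. In adipocytes Hoxa13 lay 2230 kb from a LAD, with a cluster median of 2177 kb. In the Tmem120a shRNA cells the values were 747.047 and 794.583 kb, and in the Tmem120a/b shRNA cells 729.893 and 777.429 kb. All 11 preadipocyte distances lay below those in the other 3 lists.

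The preadipocyte LAD nearest to HoxA lay at chr6:52255537-52312257, 56.72 kb or 140 DpnI fragments, and held Evx1. Evx1, the second even-skipped homeobox gene, lies at chr6:52263492-52268372, 52.617 kb from Hoxa13. Like Evx2 it lay wholly in a preadipocyte LAD (100%) and wholly outside the LADs of the other 3 lists (0%). Further out, preadipocytes had LADs of 185.559 kb at chr6:52954170-53139729 and 86.776 kb at chr6:53166188-53252964. All 3 were released regions. The long one was covered to 50.8% in the Tmem120a shRNA cells (LAD of 94.209 kb at chr6:52957922-53052131) and to 53.4% in the Tmem120a/b shRNA cells (LADs of 70.622 and 41.833 kb from 52940768 and 53026461), while the other 2 were at 0% in both. A LAD of 17.047 kb at chr6:53146247-53163294 in the Tmem120a shRNA cells fell between the preadipocyte LADs.

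Jazf1, a zinc finger gene, lies at chr6:52718791-53018625 and had 21.5%, 0%, 20.2% and 23.6% of its body in LADs in the same order of lists. The LADs of preadipocytes and of the Tmem120a shRNA cells covered its start site. The gene 9430076C15Rik, listed by RefSeq as Creb5, a transcription factor of the leucine zipper family, lies at chr6:53237289-53397716, begins beyond the 1 Mb flank and met the region of 86.776 kb. The HoxA flank beyond Hoxa13 was 28.7% in LADs in preadipocytes, 0% in adipocytes, 11.1% in the Tmem120a shRNA cells and 11.2% in the Tmem120a/b shRNA cells. The flank on the other side of the cluster was at 0% in all 4 lists. With only LADs of at least 100 kb kept, the share over both flanks was 0% in both knockdowns, as in adipocytes. With flanks of 0.5 Mb it was also 0% in both knockdowns.

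**Figure D2:**
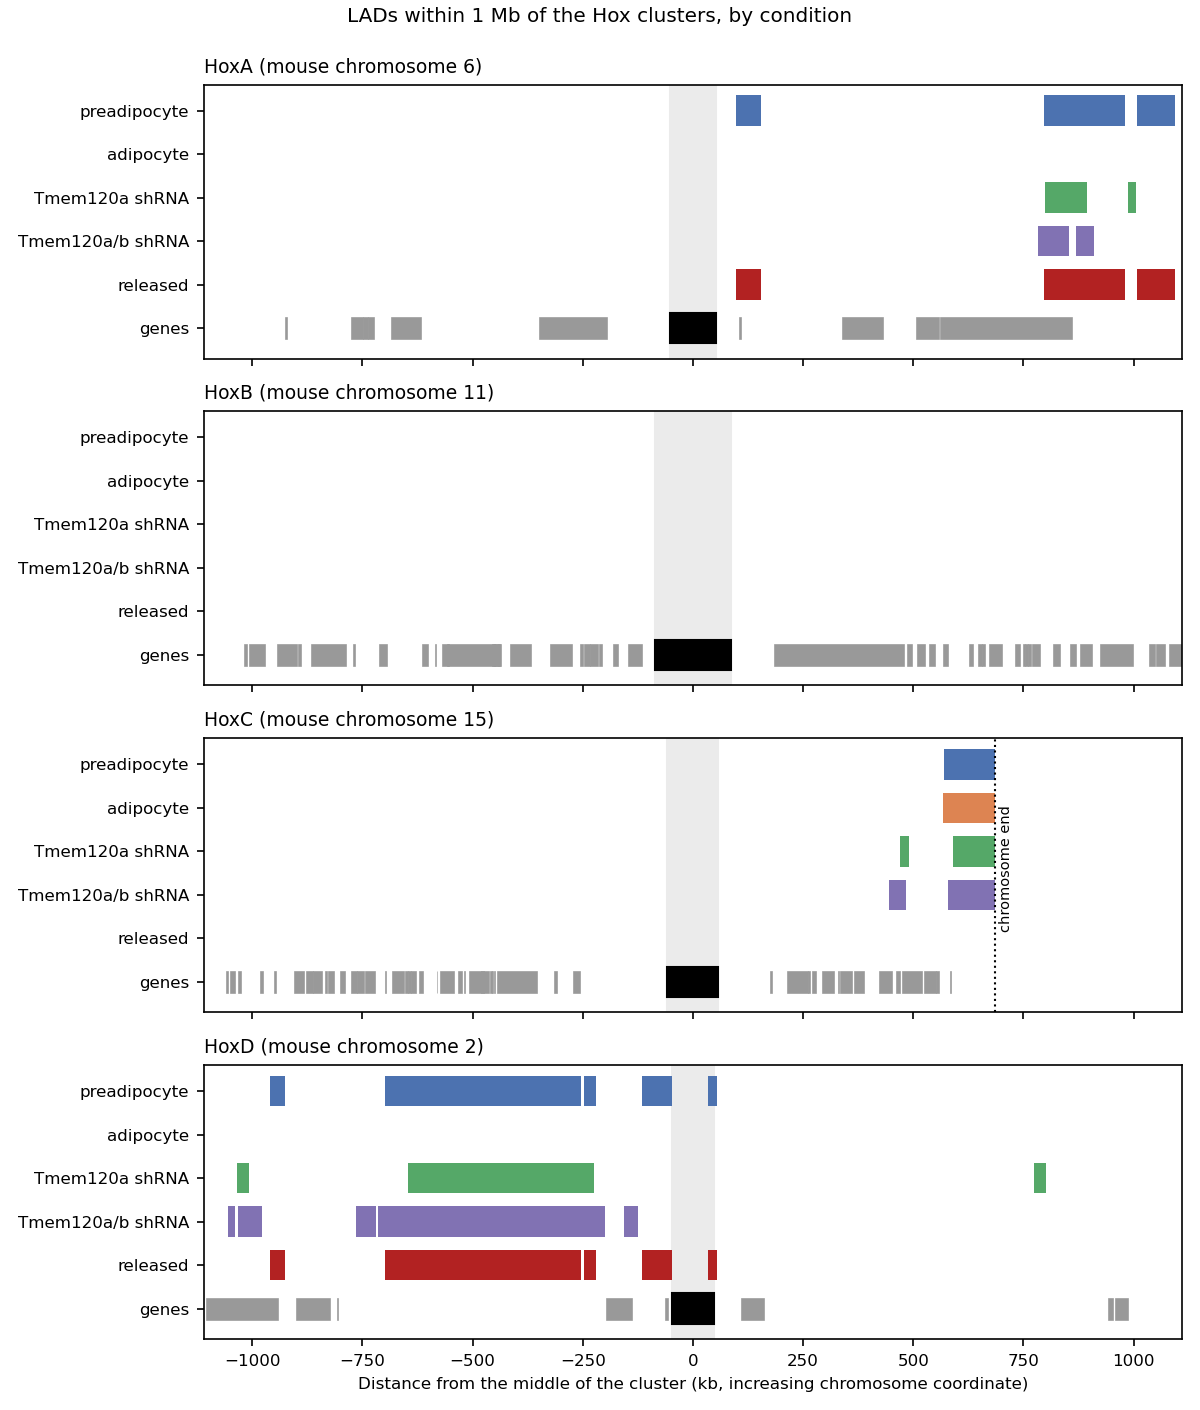
LADs of the 4 lists and released regions within 1 Mb of each Hox cluster, against distance from the middle of the cluster in kb; the black bar is the cluster, grey bars are protein-coding genes with a part in the flanks, and the dotted line is the end of chromosome 15. LADs lie on the Hoxa13 side of HoxA, mostly on the Hoxd13 side of HoxD, and at the end of the chromosome beyond HoxC, and none lies near HoxB.

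HoxC lies at chr15:102751534-102867274 with Hoxc4 toward the end of the chromosome, which cuts that flank to 627.7 kb. No list had a LAD inside the cluster. At the chromosome end a LAD was present in all 4 lists, with its end at 103494899 in each and its start at 103379297 in preadipocytes, 103377484 in adipocytes, 103400616 in the Tmem120a shRNA cells and 103388303 in the Tmem120a/b shRNA cells. This was the only one of the 4 cluster surroundings in which the adipocyte list held a LAD. The nearest LAD to Hoxc4 was at 512.022, 510.209, 411.29 and 386.819 kb, and to Hoxc13 at 620.051, 618.238, 519.319 and 494.848 kb, in the same order of lists. The knockdown values were set by additional LADs of 20.792 kb (chr15:103278565-103299357, Tmem120a) and 38.807 kb (chr15:103254094-103292901, Tmem120a/b), which the preadipocyte and adipocyte lists did not hold.

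These knockdown LADs met 3 genes that were at 0% in preadipocytes and adipocytes. Nckap1l (chr15:103284256-103329240), a subunit of the WAVE complex of blood cells, was covered over 33.6% of its body in the Tmem120a shRNA cells and 19.2% in the Tmem120a/b shRNA cells, with its start site inside the LAD in both. BC048502 (chr15:103269396-103278890) was at 3.43% and 100%. Gtsf1 (chr15:103232836-103260901), a germ line factor of transposon silencing, was at 0% and 24.3%. Glycam1 (chr15:103393193-103395509), a mucin-like ligand of L-selectin, was 100% covered by the LAD at the chromosome end in preadipocytes, adipocytes and the Tmem120a/b shRNA cells and at 0% in the Tmem120a shRNA cells, 5.106 kb from the LAD. The flank beyond Hoxc4 was 18.4%, 18.7%, 18.3% and 23.2% in LADs, and the flank beyond Hoxc13 was at 0% in all 4 lists.

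HoxB lies at chr11:96055630-96229570. No list had a LAD in the cluster or within 1 Mb of it. On the Hoxb13 side the nearest LAD ended at almost the same distance in all lists, 2346 kb from Hoxb13 for preadipocytes, 2352 kb for adipocytes, 2360 kb in the Tmem120a shRNA cells and 2357 kb in the Tmem120a/b shRNA cells. On the Hoxb1 side it varied, with 3291, 3495, 1260 and 2816 kb from Hoxb1. For Hoxb1 the nearest LAD on either side was at 2517, 2523, 1260 and 2528 kb. HoxB has the most crowded surroundings after HoxC, with 43 protein-coding genes in its flanks against 48 for HoxC, 10 for HoxA and 8 for HoxD.

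**Figure D3:**
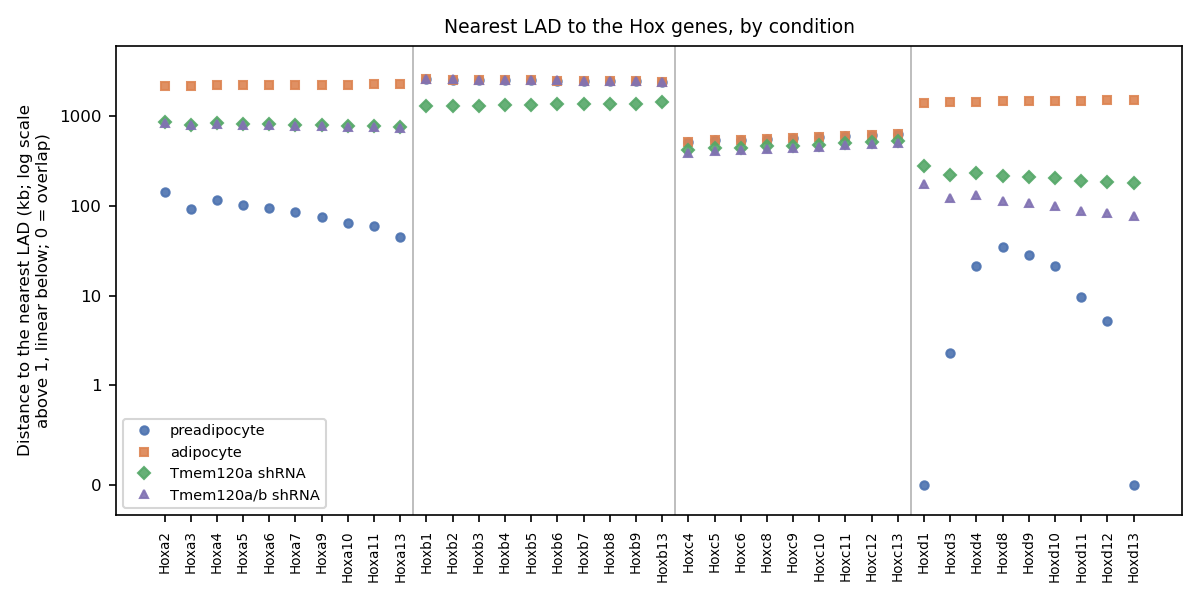
Distance in kb from the 38 Hox genes shown to the nearest LAD in the 4 lists (log scale above 1 kb, linear below, 0 for overlap), by cluster. Adipocyte points lie above 1000 kb in HoxA, HoxB and HoxD, preadipocyte points lie lowest in HoxA and HoxD, and in HoxC all 4 lists lie between 386.819 and 620.051 kb.

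Over the 39 genes the median distance to the nearest LAD was 147.22 kb for preadipocytes (range 0 to 2517), 2134 kb for adipocytes (510 to 2523), 761.708 kb in the Tmem120a shRNA cells (177 to 1431) and 744.554 kb in the Tmem120a/b shRNA cells (76.7 to 2528). Over all protein-coding genes, those in LADs included, the medians were 167, 281, 112 and 89.97 kb, so the Hox median was close to that of all genes in preadipocytes and above it in the other 3 lists. Over the genes outside LADs alone the medians were 387, 527, 252 and 223 kb. All 4 ranges overlap. By cluster, the medians in preadipocytes and adipocytes were 92.2 and 2177 kb for HoxA, 9.734 and 1447 kb for HoxD, 563.766 and 561.953 kb for HoxC, and 2449 and 2455 kb for HoxB. Over the 39 genes together, the gap between the knockdown medians and the adipocyte median rests on LADs under 100 kb. Both knockdown medians fall in the range of the HoxA genes, and all knockdown LADs within 1 Mb of HoxA are under 100 kb. With only longer LADs kept, the medians over the 39 genes were 758 kb for preadipocytes, 2245 kb for adipocytes, 2391 kb in the Tmem120a shRNA cells and 2190 kb in the Tmem120a/b shRNA cells. At HoxD the difference does not rest on short LADs alone. The flank there holds LADs of 420.129 kb (Tmem120a shRNA) and 514.74 kb (Tmem120a/b shRNA), and adipocytes had no LAD within 1 Mb.

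Hox genes with no LAD within 1 Mb numbered 10 of 39 in preadipocytes (25.6%), beside 17.8% of all genes, and these were the 10 HoxB genes. In adipocytes they numbered 30 of 39 (76.9%), beside 24.2% of all genes, namely all of HoxA, HoxB and HoxD. In the Tmem120a shRNA cells and the Tmem120a/b shRNA cells they were again the 10 HoxB genes, beside 9.65% and 7.92% of all genes. The 39 genes stand at 4 places in the genome, so these counts move by whole clusters.

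The stretch without a LAD that holds the middle of each cluster was measured as well. In adipocytes it measured 5.50 Mb at HoxA, 6.02 Mb at HoxB, 5.20 Mb at HoxC and 6.65 Mb at HoxD. Of the 2521 gaps between LADs in that list, 1.55%, 1.23%, 1.90% and 0.793% were at least as long. In preadipocytes it measured 1.68, 5.81, 2.67 and 0.0809 Mb, with 5.16%, 0.385%, 2.67% and 50.04% of gaps at least as long. In the Tmem120a shRNA cells it measured 2.80, 3.79, 1.76 and 1.00 Mb, with 1.10%, 0.491%, 2.63% and 6.19%. In the Tmem120a/b shRNA cells it measured 2.14, 5.35, 1.53 and 1.28 Mb, with 1.22%, 0.0719%, 2.30% and 3.18%. Gaps were shorter in the knockdown lists, with medians of 55.5 and 48.1 kb against 80.9 kb for preadipocytes and 90.9 kb for adipocytes. The stretch itself was shorter in both knockdowns than in adipocytes at every cluster. The share of gaps as long was lower in both knockdowns than in adipocytes at HoxA and HoxB, and higher at HoxC and HoxD.

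**Figure D4:**
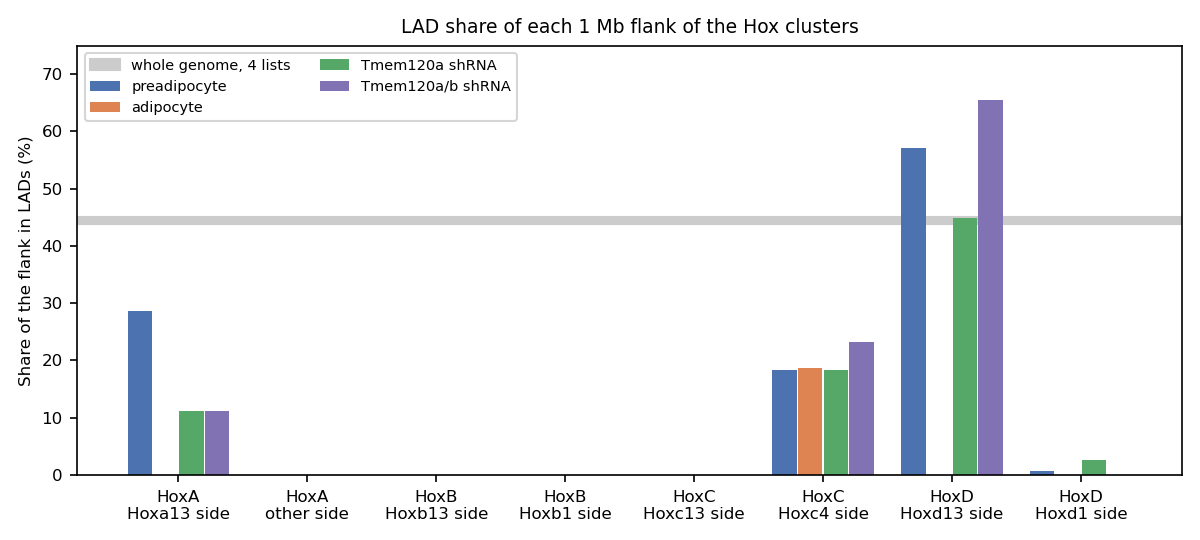
Share of each 1 Mb flank in LADs (percent, bars start at 0) for the 4 lists, with the whole-genome shares of 43.7% to 45.1% as a grey band; the Hoxc4 side is cut to 627.7 kb by the chromosome end. The Hoxd13 side reaches 57.0%, 44.8% and 65.5% in preadipocytes and the 2 knockdowns, and 4 of the 8 flanks have no LAD in any list.

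Over the 7627.7 kb of all flanks, 12.8% was in LADs in preadipocytes, 1.54% in adipocytes, 9.18% in the Tmem120a shRNA cells and 11.97% in the Tmem120a/b shRNA cells. All of the adipocyte length was the LAD at the end of chromosome 15. Of 109 protein-coding genes in the flanks, 5, 1, 4 and 7 met a LAD in the 4 lists, beside the 26.2%, 23.3%, 27.5% and 29.5% of all genes. In some but not all of the lists 9 of the 109 met one, beside 16.9% of all genes, in all 4 lists 0 did, beside 19.3%, and in none of the lists 100, beside 63.7%. The 9 were Evx1, Jazf1, Evx2, Lnp, Chn1, Gtsf1, BC048502, Nckap1l and Glycam1.

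Released regions lay within 1 Mb of 20 of 39 Hox genes (51.3%), all of HoxA and HoxD, beside 59.1% of all genes. Recruited regions of the deposited list lay within 1 Mb of 0 of 39, beside 39.8% of all genes. Subtraction of the lists gave 1.813 kb of recruited sequence in the HoxC flanks, within 1 Mb of the HoxC genes. The share over all genes was not recomputed for it. The released regions near the clusters numbered 8 and summed to 921.99 kb, 592.935 kb at HoxD and 329.055 kb at HoxA. Of the 8, 3 had at least 50% of their length in a LAD in each knockdown list, beside 35.7% of all released regions in the Tmem120a shRNA cells and 46.7% in the Tmem120a/b shRNA cells. The other 5 had 0% in both lists. Of all 2021 released regions, 907 had none of their length in a LAD of the Tmem120a shRNA cells. For the Tmem120a/b shRNA cells the number was 704. How many of all released regions had none in both lists together was not counted. By length the share in knockdown LADs was 54.8% and 61.7%, beside 35.4% and 46.5% over all released regions, and most of it came from the long HoxD region. By cluster it was 69.4% and 79.2% at HoxD and 28.6% and 30.1% at HoxA.

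**Figure D5:**
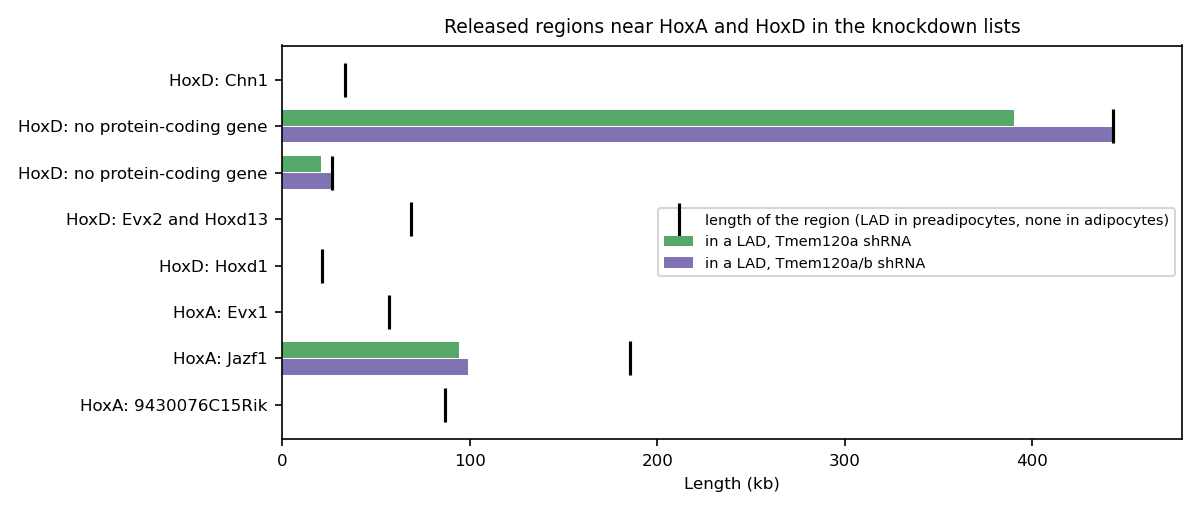
Length in kb of the 8 released regions near HoxD and HoxA (black marks) and the length of each in a LAD of the Tmem120a shRNA cells and the Tmem120a/b shRNA cells (bars), named by the protein-coding genes they meet. Bars reach the mark or near it in the 2 HoxD regions without a protein-coding gene, reach about the middle in the Jazf1 region (50.8% and 53.4%), and are absent in the regions with Hoxd13, Hoxd1, Evx1, Chn1 and 9430076C15Rik.

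The clusters also hold 6 annotated miRNA genes, all with mature sequences in RefSeq. They are shown because the miR-10 and miR-196 families run across the clusters as the Hox genes do, while miR-615 lies in HoxC alone. The seed, bases 2 to 8, is in capitals. The miR-10 members share the seed ACCCUGU and the miR-196 members the seed AGGUAGU, and the known targets of both families include Hox mRNAs:

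miR-10a-5p, HoxB: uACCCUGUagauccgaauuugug
miR-10b-5p, HoxD: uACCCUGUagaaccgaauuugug
miR-196a-5p, HoxB and HoxC: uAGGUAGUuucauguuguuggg
miR-196b-5p, HoxA: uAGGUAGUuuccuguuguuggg
miR-615-3p, HoxC: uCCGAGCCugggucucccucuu

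None of the 6 genes met a LAD in any list, beside 63.7% of all protein-coding genes that met none. The share over all miRNA genes was not computed. Mir10b, at chr2:74564127-74564194 in the HoxD stretch between the preadipocyte LADs, was 24.419 kb from a preadipocyte LAD, 1421 kb from an adipocyte LAD, 234.834 kb in the Tmem120a shRNA cells and 134.419 kb in the Tmem120a/b shRNA cells. Mir196b, in HoxA, was at 75.372, 2202, 777.757 and 760.603 kb. These values lie within the range of the Hox genes of the same cluster in each list.

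Genes that work with Hox proteins or regulate the clusters were counted as lists. Of 9 Hox cofactors of the Pbx, Meis and Pknox families, which bind DNA with Hox proteins, 0 met a LAD in any list. Of 6 ParaHox genes, the sister homeobox genes of the Hox clusters, 1 did. This was Gsx1, a factor of brain development, at 100% in preadipocytes and 0% in the other 3 lists. Of 18 Polycomb genes 15 met none. Phc2 was covered by a LAD over 15.7% of its body in preadipocytes, Cbx7 22.2% in the Tmem120a shRNA cells and Phc1 32.6% in the Tmem120a/b shRNA cells, and each was at 0% in the other 3 lists. All 3 encode subunits of Polycomb repressive complex 1. Of 10 trithorax and insulator genes 0 met a LAD in any list. Over all protein-coding genes 36.3% met a LAD in at least 1 of the 4 lists.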

How the data were processed

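Sequenced LaminB1-Dam and Dam libraries of 4 conditions, 1 of each kind per condition, were mapped by the authors to mm9. BWA and limma are named in the submitters' processing notes without versions. The authors took log2(LaminB1/Dam) per DpnI fragment, segmented it with DNAcopy and deposited LAD and differential regions as positions only. How the differential regions were chosen is not given in full in the sources used here. Lists were assigned to conditions by the abbreviations they carry.

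Members and gene lists were chosen with earlier results of these data known. Named genes are Hox genes meeting a LAD or differential region and the end genes of each cluster, flank genes meeting a LAD in some lists or a differential region, and list members meeting a LAD. At HoxD the genes lying in the gaps between preadipocyte LADs are named as well. Genes came from GENCODE vM1 (mm9) and sequences from mm9 and RefSeq. LAD borders fell at GATC for 97.8%, 96.5%, 98.6% and 98.8% of borders. The listed position, counted from 1, is the base after the DpnI cut and is printed as listed. Interval arithmetic (Python 3.11.15, numpy 2.4.6, plots with matplotlib 3.10.9) was tested on simulated intervals. No test between conditions was possible with 1 list per condition. Alternatives were minimum LAD lengths of 30 and 100 kb, closing gaps under 50 kb, other overlap rules, flanks of 0.5 Mb and subtraction of the lists. Values of 1 Hox gene by itself are not reported here.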

Additional observations from a re-analysis of the deposited data

How the results depend on the processing

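No paired analysis was possible because each condition has 1 LaminB1-Dam and 1 Dam library, and for the same reason no replicate could be left out. The lists give neither replicates nor counts, so an alternative value was taken as unmoved within 1.5-fold of the reported one. Of 136 alternative values 113 were unmoved and 23 moved. Many of the unmoved values were 0 under both settings, with no LAD close enough for the alternative to change them. The tally is therefore no measure of stability. The number of Hox genes meeting a LAD in preadipocytes was 1 with LADs of at least 30 kb, 0 with at least 100 kb, 5 with 10 kb added on each side and 1 when at least 50% of the gene had to be covered. In the other 3 lists the number was 0 under every alternative. No LAD of those lists lay closer than 76.659 kb to a Hox gene, so these alternatives could not have given another number. With LADs of at least 100 kb the HoxA flank share was 9.28% in preadipocytes and 0% in both knockdowns, the HoxC flank share was 0% in the Tmem120a shRNA cells, the released length at HoxA was 186 kb, and the median distance was 758 kb in preadipocytes, 2391 kb in the Tmem120a shRNA cells and 2190 kb in the Tmem120a/b shRNA cells. With flanks of 0.5 Mb the HoxA share was 5.67% in preadipocytes and 0% in both knockdowns, and the HoxC share was 0% in preadipocytes and adipocytes, 2.08% in the Tmem120a shRNA cells and 3.88% in the Tmem120a/b shRNA cells, since the outer LADs fall outside the window. Subtraction of the lists gave 1.813 kb of recruited sequence at HoxC, with or without a minimum length or closed gaps, where the deposited regions hold none. The HoxD share over both flanks together moved under none of these alternatives, and the shares of the HoxD cluster itself and of each side were not recomputed. Read depth is unknown, so an absent LAD cannot be told apart from one below the reach of the segmentation.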
